A study of Mus musculus with 9 samples.

Results

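The 35 genes described here encode the chaperones and folding enzymes of the endoplasmic reticulum (ER), subunits of its protein import channel, the factors of ER-associated degradation, and sensors that adjust the amounts of the others. They were chosen by name, with earlier results of these data known, from 18193 genes with a named probe set. Each is given by 1 probe set, that with the highest mean log2(signal + 16) over 9 arrays. By role the list holds 3 sensors or transcription factors, 17 folding factors, 11 degradation factors and 4 translocon factors. RNA came from NIH 3T3 cells, a long-established mouse fibroblast line, in 3 groups of 3 biological replicates. The first group was transduced with a retroviral vector for a short hairpin RNA (shRNA) against Ube2m, the second with one against Ube2f and the third with a control shRNA. All cells were harvested 5 days after transduction, and the growth label that all 9 samples share calls them cells that express Ube2f. How many hairpins were used per gene, and whether the cells were clones or pools, was not stated in the labels. Ube2m and Ube2f are E2 enzymes for NEDD8, a ubiquitin-like protein attached to cullins, and the comparisons ask which ER transcripts differed when either was targeted and which differed between them.

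Proteins that enter the secretory pathway pass through the Sec61 channel, fold with the help of the Hsp70 chaperone BiP (Hspa5), of lectin chaperones that read their sugar chains and of disulfide isomerases, and are drawn back to the cytosol and destroyed by the proteasome if folding fails. When unfolded proteins build up, the membrane sensors IRE1 (Ern1), ATF6 and PERK start the unfolded protein response. IRE1 splices the Xbp1 transcript, which then encodes an active transcription factor, and ATF6 is cut by Golgi proteases into one. Both factors bind ER stress elements in the promoters of chaperone and degradation genes, and collagen-secreting fibroblasts depend on this machinery for matrix export. Expression arrays of this kind measure total Xbp1 RNA and do not separate its spliced form.

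ER stress elements were looked for in the promoters of these genes, because some genes of this kind are known to be induced through them. A share above that of all genes is therefore not an independent result. RefSeq promoter windows (GRCm38.p6, 250 bases before to 50 after a transcript start) were at hand for 29 of the 35 genes. The element ERSE was searched as CCAAT, 9 bases of any kind and CCACG, and its variant ERSE-II as ATTGG, 1 base and CCACG, each on both strands. ATTGG is CCAAT read on the other strand, so that both elements are made of the same half-sites in different orientation and spacing. ERSE was found in 9 of the 29 genes, against 37 of 27025 genes in the whole promoter table (0.137%), so that these 9 are part of the 37. ERSE-II was found in 2 of the 29 and in 12 of 27025 genes (0.0444%). The element UPRE, searched as TGACG followed directly by TGG on both strands, was found in 0 of the 29 and in 193 genes (0.714%). Such a match is a description of letters in the window and not a measured binding site. The 12 elements, with 10 bases on either side and the half-sites in capitals, are printed 5′ to 3′ on the strand on which the element reads forward, so that the spacing can be compared.
Calr (chr8:84847065-84847103, plus strand): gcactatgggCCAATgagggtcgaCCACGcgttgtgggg
Canx (chr11:50325790-50325828, minus strand): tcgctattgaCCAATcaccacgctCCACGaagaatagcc
Creld2 (chr15:88819510-88819548, minus strand): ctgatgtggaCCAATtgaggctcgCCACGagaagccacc
Derl3 (chr10:75893232-75893270, minus strand): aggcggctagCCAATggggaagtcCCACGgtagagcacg
Dnajb11 (chr16:22857842-22857872, plus strand): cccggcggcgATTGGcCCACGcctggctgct
Dnajc3 (chr14:118937817-118937855, plus strand): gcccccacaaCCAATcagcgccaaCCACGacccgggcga
Herpud1 (chr8:94386367-94386397, plus strand): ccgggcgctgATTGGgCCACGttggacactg
Hsp90b1 (chr10:86705628-86705666, minus strand): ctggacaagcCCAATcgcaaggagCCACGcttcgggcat
Hsp90b1 (chr10:86705523-86705561, plus strand): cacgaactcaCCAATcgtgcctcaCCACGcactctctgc
Hspa5 (chr2:34772015-34772053, plus strand): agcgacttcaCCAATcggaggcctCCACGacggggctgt
Pdia6 (chr12:17266481-17266519, plus strand): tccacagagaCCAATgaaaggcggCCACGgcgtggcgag
Syvn1 (chr19:6046522-6046560, plus strand): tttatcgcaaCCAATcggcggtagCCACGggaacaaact

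**Figure D1:**
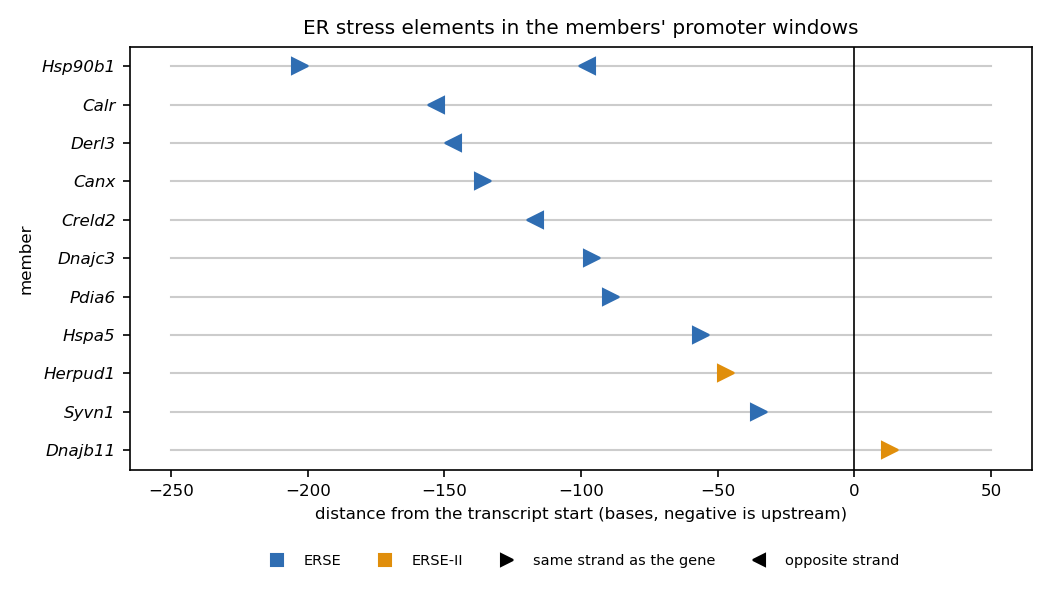
Position of each ERSE (blue) and ERSE-II (orange) match in the promoter windows of the 11 members that hold one, by distance from the transcript start in bases. Triangles point along the strand on which the element reads forward. Of the 12 matches 8 lie on the gene's strand and 4 on the opposite strand, and all but that of Dnajb11 lie upstream of the start.

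Whole windows are shown for 3 genes whose RNA is described below, the BiP gene Hspa5, the degradation factor gene Herpud1 and the chaperone gene Creld2, each printed 5′ to 3′ on the strand of the gene with the half-sites in capitals. In Creld2 the element lies on the opposite strand, so that its half-sites stand reversed.
Hspa5 (chr2:34771840-34772139, plus strand): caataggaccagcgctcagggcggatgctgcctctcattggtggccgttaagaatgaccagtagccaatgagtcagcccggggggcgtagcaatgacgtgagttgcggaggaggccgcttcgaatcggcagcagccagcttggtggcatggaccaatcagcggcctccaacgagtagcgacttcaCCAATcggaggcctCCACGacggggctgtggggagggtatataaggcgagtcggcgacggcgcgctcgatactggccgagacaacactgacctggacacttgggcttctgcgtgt
Herpud1 (chr8:94386179-94386478, plus strand): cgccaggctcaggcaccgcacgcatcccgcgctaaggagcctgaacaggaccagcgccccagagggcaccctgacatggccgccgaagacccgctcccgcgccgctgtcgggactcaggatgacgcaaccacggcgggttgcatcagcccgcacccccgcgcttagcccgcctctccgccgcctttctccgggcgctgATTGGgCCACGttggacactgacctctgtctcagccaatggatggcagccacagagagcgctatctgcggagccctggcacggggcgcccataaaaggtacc
Creld2 (chr15:88819396-88819695, plus strand): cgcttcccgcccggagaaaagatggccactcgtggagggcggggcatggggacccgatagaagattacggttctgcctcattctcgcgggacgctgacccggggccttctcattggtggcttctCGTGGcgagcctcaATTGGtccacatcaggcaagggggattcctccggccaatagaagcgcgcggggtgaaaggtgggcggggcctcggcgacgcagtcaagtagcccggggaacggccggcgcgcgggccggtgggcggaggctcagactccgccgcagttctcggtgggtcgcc

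The targeted gene Ube2f had a signal of 132 ± 13.2 in Ube2f shRNA cells and 2539 ± 199 in control cells (SD, n = 3 arrays each), while a reduction of Ube2m was not checked because no probe set of 1 gene carried its name. All 10 fibroblast markers examined were above the low-signal limit of 53.8, the 5 endothelial markers were below it, and 1 of 6 plasma cell markers (Sdc1), 2 of 5 macrophage and 3 of 5 epithelial markers were above it. The summed signal of the epithelial list, most of it Krt14, was 5637 to 6431 in Ube2m shRNA, 2643 to 4130.2 in Ube2f shRNA and 3154 to 5245 in control cells, and that of the plasma cell list, most of it Sdc1, 3245 to 3375 in Ube2m shRNA, 3970.3 to 4682 in Ube2f shRNA and 3501 to 4277 in control cells. Their part in the results below was not tested. The median array signal was 53.3 to 58.5 for replicates 1 and 2 of all groups and 64 to 73.5 for replicate 3, so that replicate 3 was treated as a possible batch. Control replicate 1 had a 3′ to 5′ beta-actin ratio of 1.82, against 1.24 to 1.35 on the other arrays. In bulk RNA, fewer cells of a kind and less RNA per cell cannot be told apart. All 35 genes passed the filter on low signals, Calr3 through its signal in Ube2m shRNA cells, since its mean in control cells was 40.1.

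With Ube2f shRNA, Xbp1, the folding factor genes Creld2, Manf, Hyou1 and Dnajb9 and the degradation factor gene Derl1 were higher than in control cells, and the degradation factor genes Erlin1 and Sel1l were lower. With Ube2m shRNA, Calr3, Pdia3 and Hyou1 were higher than in control cells, Calr3 by far the most, and Sel1l and Erlin1 were again lower. Against control, the fall of Erlin1 with Ube2m shRNA passed in 6 of 22 alternative fits, and that of Sel1l with Ube2f shRNA in 12 of 22. In limma with Benjamini-Hochberg adjustment over all 10613 genes tested, 5 of the 35 passed for Ube2m shRNA against control, 3 higher and 2 lower (14.3%, beside 9.71% of all genes tested). For Ube2f shRNA against control 8 passed, 6 higher and 2 lower (22.9%, beside 5.19%). Between Ube2m and Ube2f shRNA 7 passed, 2 higher and 5 lower with Ube2m shRNA (20%, beside 15.8%). The counts for Ube2m shRNA against control and against Ube2f shRNA include Calr3, which passed the low-signal filter through the group in which it was high. The comparisons with control share the 3 control arrays, so that their calls are not independent of each other. The 35 genes and their roles were chosen with earlier results of these data known, so that their shares are a description. Over all genes the shares called higher were 3.59%, 2.23% and 6.37%, and those called lower 6.12%, 2.96% and 9.38%, in the same order of comparisons. The median log2 fold change of the 35 genes was 0.06 for Ube2m shRNA against control, 0.19 for Ube2f shRNA against control and -0.11 for Ube2m against Ube2f shRNA, beside -0.038, 0.011 and -0.044 over all genes tested. Arrays of the 2 groups compared did not overlap for 12, 16 and 14 of the 35 genes in these comparisons (34.3%, 45.7% and 40.0%), beside 29.7%, 23.2% and 34.4% of all genes.

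With replicate 3 as a batch term the calls were 10, 14 and 9, and the 5, 8 and 7 calls above were among them, while the shares called over all genes were 20%, 13.8% and 25.6% in that fit. The calls it added were those of Canx (adjusted p = 0.0471), Sdf2l1 (0.0139), Creld2 (0.0405), Manf (0.0046) and Erlin2 (0.0223) for Ube2m shRNA against control. For Ube2f shRNA against control it added Atf6 (0.024), Hspa5 (0.0386), Sdf2l1 (0.00339), Herpud1 (0.000884), Syvn1 (0.0129) and Derl2 (0.0348), and between Ube2m and Ube2f shRNA Creld2 (0.00282) and Derl2 (0.0115). With each array centred on the median of all its probe sets they were 2, 1 and 3, of which 1, 0 and 2 were higher, while over all genes (4.78%, 2.09% and 8.14%) this scaling called 121 higher and 386 lower, 50 higher and 172 lower, and 356 higher and 508 lower, against 381 and 650, 237 and 314, and 676 and 996 without it. For Ube2f shRNA against control only the call of Erlin1 remained under this scaling. Those of Xbp1 (adjusted p = 0.216), Creld2 (0.249), Manf, Hyou1, Dnajb9, Derl1 and Sel1l were lost. Among the calls lost were also Pdia3 and Hyou1 for Ube2m shRNA against control. Between the targeted groups, Xbp1, Herpud1, Derl1 and Erlin2 were lost. With each array centred on the median of the genes tested, an alternative chosen after seeing the data, the 35 genes gave 4, 8 and 6 calls, and all genes 534 higher and 432 lower, 240 and 307, and 856 and 745.

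**Figure D2:**
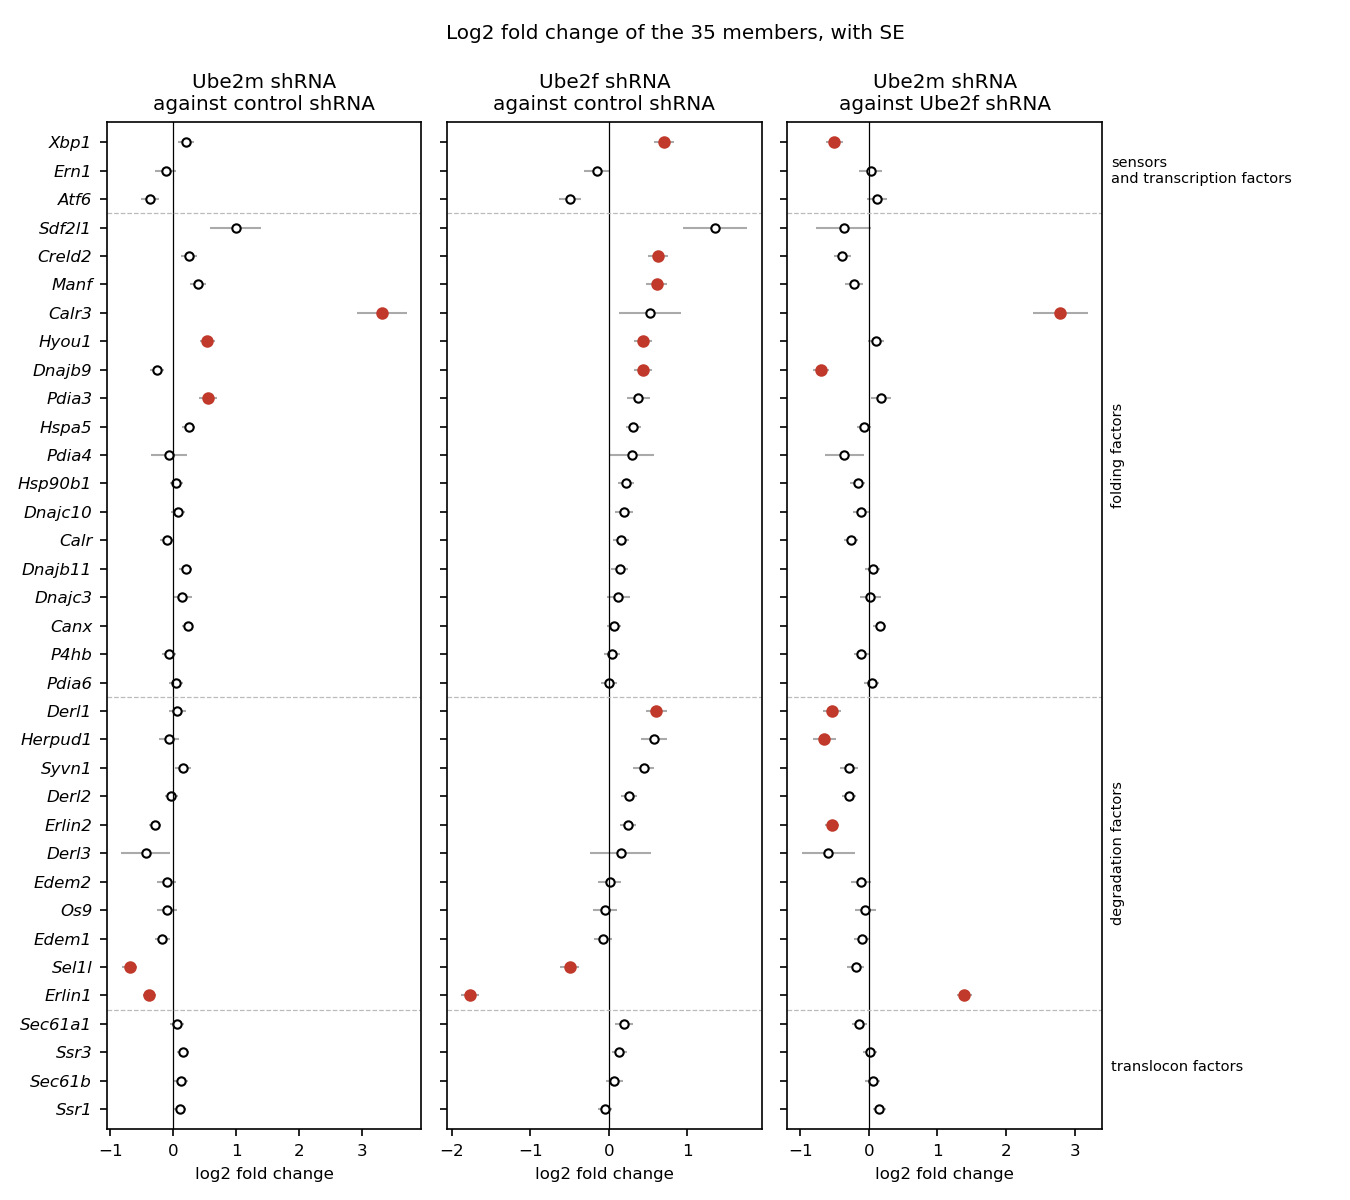
Log2 fold change (x axis) of each of the 35 genes, grouped by role from top to bottom, in the 3 comparisons, with bars for the SE of the limma fit. Filled red points passed the adjusted threshold and open points did not. In the middle panel all 17 folding factors lie above 0, between 0.0034 and 1.36, 4 of them past the threshold. Over all genes tested 51.8% lay above 0 and 2.23% were called higher in that comparison. Other probe sets of Calr3, Pdia3, Dnajc3 and Dnajc10, not shown, include values below 0, while further probe sets of the other folding factors lay above 0.

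Among the sensors and transcription factors, Xbp1 was the member that changed. Xbp1 RNA, which encodes the factor activated by IRE1 splicing, had signals of 8219, 8291 and 7357 in Ube2m shRNA cells, 11337, 12705 and 9855 in Ube2f shRNA cells and 7349, 7692 and 5752 in control cells. All 3 Ube2f shRNA arrays lay above all 6 others. Against control, Ube2f shRNA cells were higher (log2 fold change 0.71, SE 0.13, adjusted p = 0.00836), and Ube2m shRNA cells were lower than Ube2f shRNA cells (log2 fold change -0.50, SE 0.13, adjusted p = 0.0207). Ube2m shRNA against control gave 0.21, adjusted p = 0.357. The rise of Xbp1 with Ube2f shRNA did not pass with arrays centred on the median (adjusted p = 0.216). The difference from control in Ube2f shRNA cells was 0.67 in replicates 1 and 2 and 0.78 in replicate 3, and the other 3 Xbp1 probe sets gave differences of 0.64 to 0.82. Atf6, the sensor cut by Golgi proteases, had signals of 514, 433 and 479 in Ube2m shRNA cells, 401, 422 and 481 in Ube2f shRNA cells and 682, 518 and 664 in control cells. Every array of both targeted groups lay below every control array, but neither difference passed, with -0.37, adjusted p = 0.13 for Ube2m shRNA and -0.49, adjusted p = 0.0693 for Ube2f shRNA, the second of which passed with replicate 3 as a batch term (adjusted p = 0.024). Its 2 other probe sets gave 0.16 and -0.027 with Ube2m shRNA, and 0.022 and -0.17 with Ube2f shRNA. Ern1, which encodes IRE1 itself, overlapped between all groups, with log2 fold changes of -0.12 and -0.15 for Ube2m and Ube2f shRNA against control, and neither passed (adjusted p = 0.727 and 0.679).

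Of the 17 folding factors 3 rose and 0 fell with Ube2m shRNA, and 4 rose and 0 fell with Ube2f shRNA. These calls were 17.6% and 23.5% of the role, beside 9.71% and 5.19% of all genes. The share with Ube2m shRNA includes Calr3, which passed the low-signal filter through the group in which it was high. The median log2 fold change of the role was 0.20 with Ube2m shRNA and 0.29 with Ube2f shRNA, both against control, beside -0.038 and 0.011 over all genes. Between the targeted groups, Ube2m against Ube2f shRNA, 1 was higher and 1 lower (11.8%, beside 15.8% of all genes), with a median of -0.11. Creld2, an ER chaperone induced by stress, had signals of 2429, 2200.4 and 1962 in Ube2m shRNA cells, 2909.7, 3181 and 2533 in Ube2f shRNA cells and 1991, 1936 and 1622 in control cells. The Ube2f shRNA arrays lay above all others, and the difference from control passed (log2 fold change 0.63, SE 0.13, adjusted p = 0.0129). With arrays centred on the median it did not pass (adjusted p = 0.249). Ube2m shRNA cells lay below Ube2f shRNA cells on every array, a difference that did not pass (-0.38, adjusted p = 0.0576) but passed with replicate number as a block (adjusted p = 0.00587). Manf, a secreted ER stress-induced factor that binds BiP, had signals of 8633, 8136 and 7079 in Ube2m shRNA cells, 9322, 10539 and 7992 in Ube2f shRNA cells and 6106, 6777 and 5313 in control cells. Both targeted groups lay above control on every array, with 0.61, adjusted p = 0.0175 for Ube2f shRNA, which passed, and 0.39, adjusted p = 0.0777 for Ube2m shRNA, which did not, except with settings such as replicate 3 as a batch term (adjusted p = 0.0046). With arrays centred on the median, the rise of Manf with Ube2f shRNA did not pass.

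Hyou1, a large ER chaperone related to Hsp70 that exchanges the nucleotide of BiP, rose in both targeted groups. Its signals were 1569.6, 1507 and 1878 in Ube2m shRNA cells, 1414, 1556 and 1621 in Ube2f shRNA cells and 1059, 1098 and 1216 in control cells. No array of a targeted group overlapped with control, and the log2 fold change was 0.54 with Ube2m shRNA (SE 0.12, adjusted p = 0.0132) and 0.44 with Ube2f shRNA (SE 0.12, adjusted p = 0.0498). The rise passed in 19 of 22 alternative fits with Ube2m shRNA and in 7 of 22 with Ube2f shRNA. The 2 other Hyou1 probe sets gave 0.92 and 1.02 with Ube2m shRNA and 0.69 and 0.99 with Ube2f shRNA. BiP itself, Hspa5, had signals of 18318, 19178 and 17860.4 in Ube2m shRNA cells, 18445, 21227 and 18509 in Ube2f shRNA cells and 15486, 14433 and 16826 in control cells. Both targeted groups lay above control on every array, and neither difference passed (0.25, adjusted p = 0.149 with Ube2m shRNA, 0.32, adjusted p = 0.0947 with Ube2f shRNA). For Hspa5 the difference was 0.33 in replicates 1 and 2 and 0.086 in replicate 3 with Ube2m shRNA, and 0.40 in replicates 1 and 2 and 0.14 in replicate 3 with Ube2f shRNA. Sdf2l1, a partner of ER Hsp40 chaperones, read 812, 716 and 558 in Ube2m shRNA cells, 1313, 868 and 619 in Ube2f shRNA cells and 397, 652 and 144 in control cells. The control values spread widely and reached into the other groups, and differences of 0.99, adjusted p = 0.152 for Ube2m shRNA and 1.36, adjusted p = 0.0777 for Ube2f shRNA did not pass. With replicate 3 as a batch term both did (adjusted p = 0.0139 and 0.00339).

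Dnajb9, an ER Hsp40 that brings BiP to IRE1 and keeps the sensor quiet, had the clearest of its own differences between the targeted groups. Its signals were 759, 799 and 952 in Ube2m shRNA cells, 1428, 1300.3 and 1349 in Ube2f shRNA cells and 994, 977 and 1032 in control cells. The 3 groups did not overlap, with Ube2f shRNA cells the highest and Ube2m shRNA cells the lowest. The difference between Ube2m and Ube2f shRNA passed (log2 fold change -0.70, SE 0.11, adjusted p = 0.00137), as did that between Ube2f shRNA and control (0.43, adjusted p = 0.0461), while that between Ube2m shRNA and control did not (-0.26, adjusted p = 0.177). The difference between the targeted groups passed in 22 of 22 alternative fits, and the Ube2f shRNA rise over control in 9 of 22.

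Calr3, a relative of calreticulin that is known mainly from the testis, had the largest log2 fold change among the 35 genes in these comparisons. Its signals were 498, 423 and 480.3 in Ube2m shRNA cells, 69.6, 43.9 and 49.8 in Ube2f shRNA cells and 44.3, 70.1 and 5.9 in control cells. The Ube2m shRNA arrays lay far above every other array, while Ube2f shRNA and control cells overlapped and lay between 5.9 and 70.1, around the low-signal limit of 53.8. The log2 fold change was 3.31 against control (SE 0.40, adjusted p = 0.000398) and 2.79 against Ube2f shRNA (SE 0.40, adjusted p = 0.000564). Calr3 passed the low-signal filter through the Ube2m shRNA arrays, so that these 2 calls are not independent of the filter. The control signal is low, and the size moved with the constant added before the logarithm, with 2.40 at a constant of 64 and 3.84 at 4. Its 2 other probe sets gave log2 differences of 3.57 and 2.71 from control with Ube2m shRNA, and -0.088 and -0.17 with Ube2f shRNA. Calreticulin itself, Calr, a lectin chaperone, had means of 13991 ± 233 in Ube2m shRNA, 16806 ± 1758 in Ube2f shRNA and 15065 ± 1254 in control cells (SD, n = 3 each), and passed in no comparison (adjusted p = 0.6, 0.445 and 0.121).

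Pdia3, a disulfide isomerase that works with the lectin chaperones, rose with Ube2m shRNA. It read 8503, 8877 and 6625 in Ube2m shRNA cells, 7247, 7359.5 and 6511 in Ube2f shRNA cells and 4387, 5579 and 6452 in control cells. Every targeted array lay above every control array, with log2 fold change 0.55, SE 0.15, adjusted p = 0.0345 for Ube2m shRNA and 0.38, adjusted p = 0.17 for Ube2f shRNA, the second not passing. With Ube2m shRNA the log2 fold change was 0.81 in replicates 1 and 2 and 0.038 in replicate 3, and for Ube2f shRNA the values were 0.56 and 0.013. Control replicate 1, the array with the high beta-actin ratio, gave the lowest Pdia3 signal, and the part of that ratio in the result was not tested beyond the fit with it as a covariate (0.41, adjusted p = 0.145). Canx, a membrane-bound lectin chaperone, was above control on every Ube2m shRNA array (0.23, adjusted p = 0.137), and Dnajb11, an Hsp40 partner of BiP, likewise (0.20, adjusted p = 0.279), but neither passed. The 2 other Canx probe sets gave 0.43 and 0.51 with Ube2m shRNA, and their mean with the one in use passed (adjusted p = 0.0369). Hsp90b1, the ER Hsp90, was above control on every Ube2f shRNA array (0.22, adjusted p = 0.268) without passing. A second Hsp90b1 probe set, with signals of 2919 to 8359, gave larger differences from control, 0.58 with Ube2m and 0.70 with Ube2f shRNA, against 0.054 and 0.22 on the one in use. The other disulfide isomerases did not pass in either comparison with control, with log2 fold changes for Ube2m and Ube2f shRNA of -0.067 and 0.04 for P4hb, 0.046 and 0.0034 for Pdia6, and -0.065 and 0.29 for Pdia4. The ER Hsp40 genes Dnajc3 and Dnajc10 did not pass either, with 0.15 and 0.12, and 0.078 and 0.19.

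**Figure D3:**
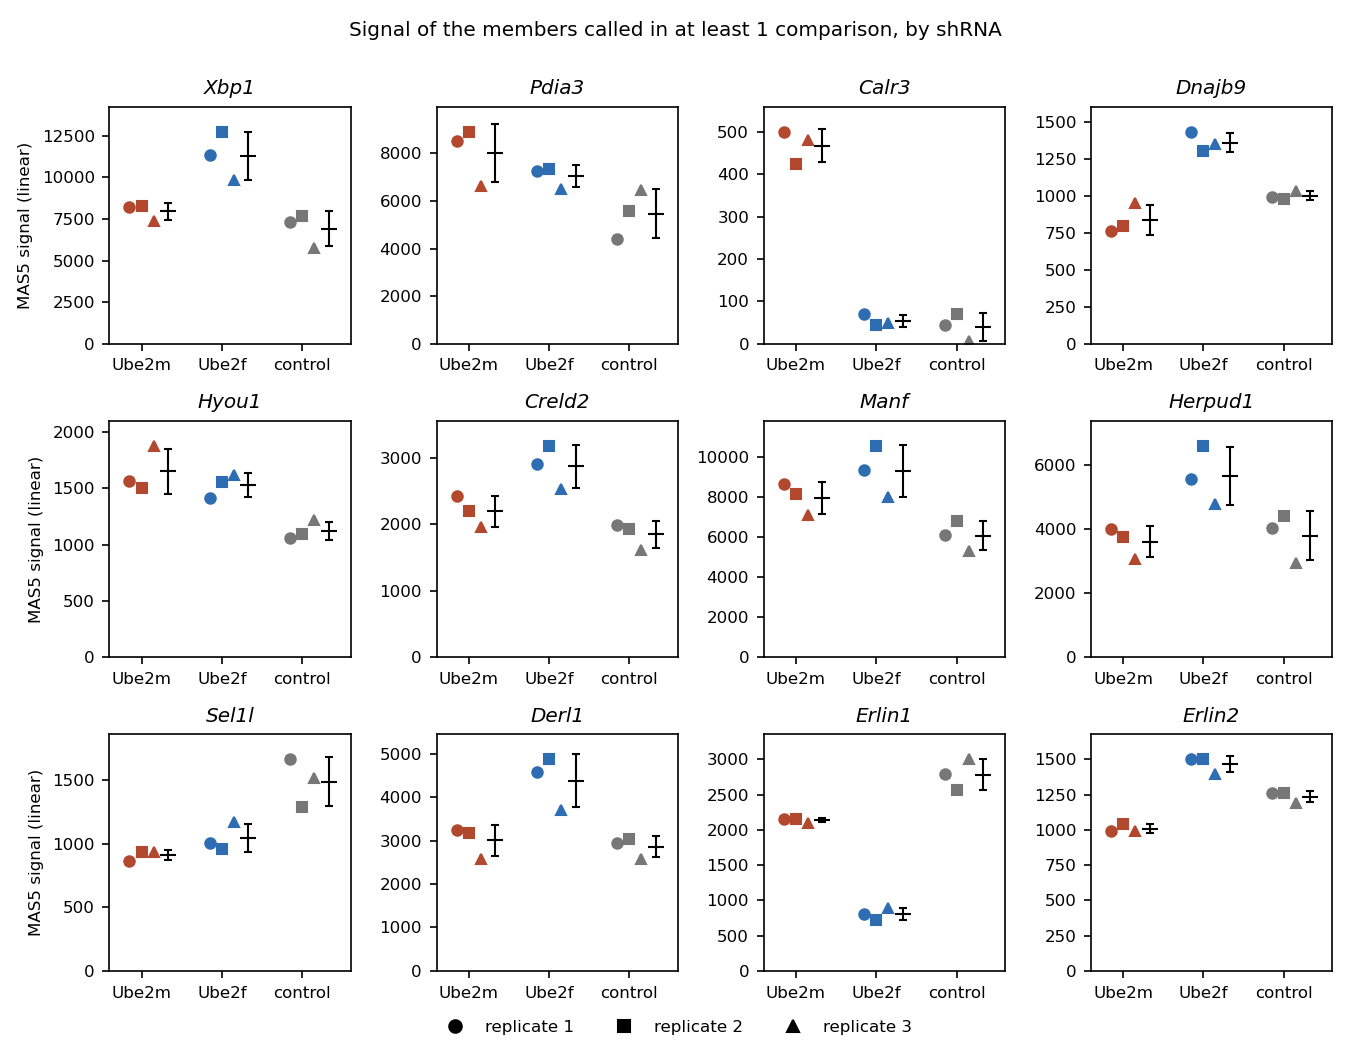
MAS5 signal (linear y axis from 0) of the 12 members that passed in at least 1 comparison, on each array of the Ube2m shRNA (red), Ube2f shRNA (blue) and control (grey) groups. Symbols mark replicates, and black bars are the mean and SD of 3 arrays. Calr3 is high only on the Ube2m shRNA arrays, Erlin1 is lowest on the Ube2f shRNA arrays, and Dnajb9 separates all 3 groups.

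Of the 11 degradation factors 0 rose and 2 fell with Ube2m shRNA, and 1 rose and 2 fell with Ube2f shRNA, both against control. These calls were 18.2% and 27.3% of the role, beside 9.71% and 5.19% of all genes. Between Ube2m and Ube2f shRNA 1 was higher and 3 were lower in Ube2m shRNA cells (36.4%, beside 15.8%). The median log2 fold change was -0.29 and 10 of 11 were below 0, beside 56% of all genes tested. Another probe set of Derl2 and some of Sel1l gave values above 0, as given below. The medians against control were -0.10 with Ube2m shRNA and 0.15 with Ube2f shRNA. Erlin1 encodes a membrane protein that forms a ring-shaped complex with Erlin2 and passes activated IP3 receptors and other clients to degradation. Its signals were 2159, 2153 and 2102 in Ube2m shRNA cells, 801, 726 and 896 in Ube2f shRNA cells and 2792, 2559.6 and 3000.0 in control cells. The groups did not overlap, and the Ube2f shRNA signal was 29% of control. Ube2f shRNA cells were lower than control (log2 fold change -1.77, SE 0.11, adjusted p = 2.86e-06), and so were Ube2m shRNA cells, by far less (log2 fold change -0.38, SE 0.11, adjusted p = 0.0494). The difference between Ube2m and Ube2f shRNA passed (log2 fold change 1.39, SE 0.11, adjusted p = 5.57e-06). A second Erlin1 probe set read 16.9 to 65.5 over the 9 arrays, with a mean below the low-signal limit, and with both averaged the values were -0.97, adjusted p = 0.0154 for Ube2f shRNA against control, -0.51, adjusted p = 0.128 for Ube2m shRNA against control and 0.46, adjusted p = 0.143 between the targeted groups.

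Erlin2, the partner of Erlin1, followed another order. Its signals were 990.4, 1044 and 991 in Ube2m shRNA cells, 1500.1, 1499.9 and 1399.5 in Ube2f shRNA cells and 1260.2, 1260.3 and 1189.5 in control cells. Ube2f shRNA cells were highest and Ube2m shRNA cells lowest with no overlap, the reverse of the order of Erlin1 in these 2 groups. Only the difference between Ube2m and Ube2f shRNA passed (log2 fold change -0.53, SE 0.098, adjusted p = 0.00308), while each group against control gave -0.29, adjusted p = 0.084 for Ube2m shRNA and 0.24, adjusted p = 0.184 for Ube2f shRNA. Sel1l, the adaptor that holds the ubiquitin ligase Hrd1 (Syvn1) together with its substrates, fell in both targeted groups. It read 868, 932 and 933 in Ube2m shRNA cells, 1008, 959 and 1173 in Ube2f shRNA cells and 1663, 1287 and 1516 in control cells. All targeted arrays lay below all control arrays, with log2 fold change -0.69, SE 0.12, adjusted p = 0.00519 for Ube2m shRNA and log2 fold change -0.50, SE 0.12, adjusted p = 0.0375 for Ube2f shRNA. All 4 other Sel1l probe sets were below control in both groups, with log2 differences of -0.55 to -0.073 for Ube2m shRNA and -0.90 to -0.39 for Ube2f shRNA. Syvn1, which encodes the ligase itself, read 1036, 989 and 1305 in Ube2m shRNA cells, 1205, 1404 and 1454 in Ube2f shRNA cells and 1047, 912 and 1011 in control cells. The Ube2f shRNA arrays lay above control, but the difference did not pass (0.44, adjusted p = 0.0714) unless replicate 3 was a batch term (adjusted p = 0.0129), and with Ube2m shRNA it was 0.15, adjusted p = 0.514. A second Syvn1 probe set gave 0.051 with Ube2f shRNA.

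Derl1, a membrane protein of the channel through which substrates leave the ER, rose with Ube2f shRNA. Its signals were 3246, 3181 and 2588 in Ube2m shRNA cells, 4571, 4872 and 3696 in Ube2f shRNA cells and 2952, 3042 and 2584 in control cells. The Ube2f shRNA arrays lay above all others, and passed against control (log2 fold change 0.61, SE 0.13, adjusted p = 0.0187), while Ube2m shRNA cells were lower than Ube2f shRNA cells (log2 fold change -0.54, SE 0.13, adjusted p = 0.0145). Of its 3 other probe sets, 2 were higher and 1 was not (0.31, 0.46 and -0.043 for Ube2f shRNA against control), and with all averaged the rise was 0.33, adjusted p = 0.252. With arrays centred on the median the rise of Derl1 did not pass either. Herpud1, a stress-induced membrane protein that gathers the degradation complex, had signals of 3983, 3745 and 3059 in Ube2m shRNA cells, 5567, 6585 and 4791 in Ube2f shRNA cells and 4029.5, 4405 and 2950.2 in control cells. The Ube2f shRNA arrays were again highest, with log2 fold change -0.65, SE 0.16, adjusted p = 0.0177 for Ube2m against Ube2f shRNA. Against control Herpud1 did not pass with Ube2f shRNA (0.58, adjusted p = 0.0623, and 0.52 in replicates 1 and 2 and 0.70 in replicate 3) or with Ube2m shRNA (-0.066, adjusted p = 0.857). With replicate 3 as a batch term the difference of Ube2f shRNA from control passed (adjusted p = 0.000884), and a second Herpud1 probe set gave 0.56. Derl2, a relative of Derl1, lay above both other groups on every Ube2f shRNA array, with 0.26, adjusted p = 0.184 against control and -0.29, adjusted p = 0.085 for Ube2m against Ube2f shRNA, and the second passed with replicate number as a block (adjusted p = 0.0217). A second Derl2 probe set gave 0.40 for Ube2m against Ube2f shRNA, the opposite sign. Derl3, the derlin of secretory tissues, was near the low-signal limit in all groups, with means of 49.4 ± 24 in Ube2m shRNA, 78.2 ± 15.8 in Ube2f shRNA and 74.2 ± 37 in control cells (SD, n = 3 each). The mannosidase-like factors Edem1 and Edem2 and the lectin Os9, which pick out sugar-trimmed substrates, passed in no comparison, with log2 fold changes for Ube2m and Ube2f shRNA against control of -0.17 and -0.072, -0.10 and 0.012, and -0.099 and -0.049.

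The 4 translocon factors did not pass in any comparison. Sec61a1 and Sec61b, subunits of the import channel, and Ssr1 and Ssr3, of the translocon-associated complex, had log2 fold changes of 0.06 to 0.15 with Ube2m shRNA and -0.046 to 0.20 with Ube2f shRNA against control. Sec61b, for example, averaged 9533 ± 786 in Ube2m shRNA, 9157 ± 1045 in Ube2f shRNA and 8698 ± 292 in control cells (SD, n = 3 each).

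Set against the elements printed above, the 11 genes with an ERSE or ERSE-II match had 11 log2 fold changes above 0 with Ube2f shRNA, with a median of 0.16 and a highest value of 0.63 for Creld2, the only one of them called, beside 51.8% above 0 over all genes tested. The 18 genes with a window and no match had a median of 0.10, and 12 of them were above 0. With Ube2m shRNA the medians were 0.15 with a match (8 of 11 above 0, beside 44.4% over all genes) and -0.047 without (8 of 18 above 0), and 0 of the 11 were called in limma, while 2 of them, Hspa5 and Canx, had an unadjusted p under 0.05, beside 24.8% of all genes tested. Between Ube2m and Ube2f shRNA the medians were -0.16 and -0.10, and Herpud1 was the 1 gene with a match that was called. These gene groups were not compared by a test. Most genes with a match were folding factors, and all 17 folding factors lay above 0 with Ube2f shRNA, with or without a match. Match and role were therefore not told apart. The lowest value with a match was 0.0034 for Pdia6. Of the 18 genes without a match, 2 were called higher and 2 lower in each comparison. Xbp1, Dnajb9, Sel1l and Erlin1 had no match in their windows, and 6 genes, among them Derl1, Hyou1, Manf and Erlin2, had no window in the table. With Ube2f shRNA these 6 genes had a median of 0.34, above that of the genes with a match, with 5 above 0 and 3 called higher. With Ube2m shRNA their median was 0.064, with 4 above 0 and 1 called higher. Between the targeted groups their median was -0.18, with 2 above 0 and 2 called lower.

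Within replicates 1 and 2, and within replicate 3, the log2 fold changes of the calls were as follows, given in that order for each gene. For Ube2m shRNA against control they were 0.81 and 0.038 for Pdia3, 2.72 and 4.50 for Calr3, 0.51 and 0.62 for Hyou1, -0.69 and -0.69 for Sel1l, and -0.31 and -0.51 for Erlin1. For Ube2f shRNA against control they were 0.67 and 0.78 for Xbp1, 0.46 and 0.38 for Dnajb9, 0.45 and 0.41 for Hyou1, 0.63 and 0.64 for Creld2, 0.62 and 0.59 for Manf, -0.57 and -0.37 for Sel1l, 0.65 and 0.51 for Derl1, and -1.79 and -1.73 for Erlin1. For Ube2m against Ube2f shRNA they were -0.54 and -0.42 for Xbp1, 2.73 and 2.92 for Calr3, -0.79 and -0.50 for Dnajb9, -0.65 and -0.64 for Herpud1, -0.55 and -0.51 for Derl1, 1.48 and 1.22 for Erlin1, and -0.55 and -0.49 for Erlin2. Every call had the same sign in replicate 3, which alone gives no spread, and that of Pdia3 was near 0 there. The calls were made with replicate 3 in the fit, so that this agreement is not an independent check.

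Most calls near the threshold were lost when 1 array was left out, although no call changed direction. These fits share most arrays with the main fit, so that a kept direction is not independent of the call. In the comparison of Ube2m shRNA against control, 2 of 5 calls passed without any 1 of the 9 arrays, those of Calr3 and Sel1l. Pdia3 (0.40 to 0.68 over the 9 fits) did not pass without Ube2m replicate 1 (0.129), Ube2m replicate 2 (0.145), Ube2f replicate 1 (0.054), control replicate 1 (0.143) or control replicate 2 (0.0679), with the adjusted p in parentheses. Hyou1 (0.45 to 0.61) did not pass without control replicate 1 (0.0531). Erlin1 (-0.43 to -0.32) did not pass without Ube2m replicate 1 (0.139), Ube2m replicate 2 (0.142), Ube2m replicate 3 (0.106), Ube2f replicate 1 (0.0768), control replicate 1 (0.116), control replicate 2 (0.0566) or control replicate 3 (0.116). In the comparison of Ube2f shRNA against control, 2 of 8 calls passed without any 1 of the 9 arrays, those of Xbp1 and Erlin1. Dnajb9 (0.40 to 0.47) did not pass without Ube2m replicate 1 (0.0659), Ube2m replicate 2 (0.0788), Ube2f replicate 1 (0.191), Ube2f replicate 2 (0.0857), Ube2f replicate 3 (0.0744), control replicate 1 (0.109), control replicate 2 (0.107) or control replicate 3 (0.0683). Hyou1 (0.40 to 0.50) did not pass without Ube2m replicate 1 (0.0794), Ube2m replicate 2 (0.0756), Ube2f replicate 1 (0.102), Ube2f replicate 2 (0.126), Ube2f replicate 3 (0.102), control replicate 1 (0.144) or control replicate 2 (0.112). Creld2 (0.54 to 0.72) did not pass without Ube2f replicate 1 (0.0629) or Ube2f replicate 2 (0.0544). Manf (0.52 to 0.71) did not pass without Ube2f replicate 1 (0.0785), Ube2f replicate 2 (0.0678), control replicate 1 (0.0621) or control replicate 3 (0.0538). Sel1l (-0.60 to -0.42) did not pass without Ube2m replicate 1 (0.0612), Ube2m replicate 2 (0.0658), Ube2f replicate 1 (0.157), Ube2f replicate 2 (0.123), control replicate 1 (0.128) or control replicate 3 (0.0776). Derl1 (0.52 to 0.72) did not pass without Ube2f replicate 1 (0.097), Ube2f replicate 2 (0.0757), control replicate 1 (0.0555) or control replicate 3 (0.0548). In the comparison of Ube2m against Ube2f shRNA, 4 of 7 calls passed without any 1 of the 9 arrays, those of Calr3, Dnajb9, Erlin1 and Erlin2. Xbp1 (-0.59 to -0.41) did not pass without Ube2m replicate 1 (0.0521), Ube2m replicate 2 (0.0527), Ube2m replicate 3 (0.0613), Ube2f replicate 1 (0.0704) or Ube2f replicate 2 (0.0809). Herpud1 (-0.76 to -0.53) did not pass without Ube2m replicate 3 (0.0607), Ube2f replicate 1 (0.0559) or Ube2f replicate 2 (0.0774). Derl1 (-0.66 to -0.44) did not pass without Ube2m replicate 3 (0.0519), Ube2f replicate 1 (0.0632) or Ube2f replicate 2 (0.0628).

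A further list of 81 ER genes outside the 35, of which 78 had a probe set and were tested, was read in the same fit. It too was chosen with earlier results of these data known. Of the 78, 2 rose and 10 fell with Ube2m shRNA, and 2 rose and 0 fell with Ube2f shRNA, beside background shares called of 9.71% and 5.19%. Between Ube2m and Ube2f shRNA 1 was higher and 14 were lower in Ube2m shRNA cells (19.2%, beside 15.8%), and the median was -0.09. Of 7 other stress sensors and proteases, 3 fell with Ube2m shRNA (Mbtps1, Mbtps2 and Creb3), with a median of -0.43. These were 42.9% of the list, beside 6.12% of all genes called lower and a median of -0.038 over all genes. Mbtps1 and Mbtps2 encode the Golgi proteases that cut ATF6. Mbtps2, the site-2 protease, read 1045, 1148 and 1209 in Ube2m shRNA cells, 1765, 1490.3 and 1912 in Ube2f shRNA cells and 1913, 1661 and 1869 in control cells. Ube2m shRNA arrays lay below all others, with -0.67, adjusted p = 0.00504 against control and -0.59, adjusted p = 0.00539 against Ube2f shRNA. Mbtps1, the site-1 protease, gave -0.47, adjusted p = 0.0282 and -0.72, adjusted p = 0.00166 in the same comparisons.

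In the PERK and ATF4 arm, 1 of 8 genes fell with Ube2m shRNA (Asns) and 1 rose with Ube2f shRNA. Each is 12.5% of the list, beside 9.71% and 5.19% of all genes called. The gene that rose was Ddit3, which encodes the stress factor CHOP. Its signals were 1014, 1078 and 742 in Ube2m shRNA cells, 2104, 1991 and 1329 in Ube2f shRNA cells and 968, 1145 and 617 in control cells. Every Ube2f shRNA array lay above every array of both other groups, with 1.00, adjusted p = 0.0261 against control, and Ube2m shRNA cells were lower than Ube2f shRNA cells (-0.91, adjusted p = 0.0173). Between Ube2m and Ube2f shRNA 3 of the 8 genes passed (37.5%, beside 15.8% of all genes), all 3 lower with Ube2m shRNA (Ddit3, Chac1 and Asns). The median was -0.44, beside -0.044 over all genes. All 8 log2 fold changes were below 0, the smallest in size being -0.05 for Ppp1r15a, beside 56% below 0 over all genes tested. Among 21 other degradation genes 0 rose and 3 fell with Ube2m shRNA (14.3%, beside 9.71% of all genes called). Ngly1, the cytosolic enzyme that strips sugar chains from retrotranslocated proteins, read 399, 565 and 435 in Ube2m shRNA cells, 1065, 842 and 1106 in Ube2f shRNA cells and 888, 913 and 919 in control cells. The Ube2m shRNA arrays were below all others, with -0.95, adjusted p = 0.00207 against control and -1.09, adjusted p = 0.000415 against Ube2f shRNA. The ubiquitin ligase gene Rnf185 gave -0.37, adjusted p = 0.0321 against control and -0.71, adjusted p = 0.000456 against Ube2f shRNA. In the N-glycan list Mogs, the glucosidase that starts trimming, fell with Ube2m shRNA (-0.55, adjusted p = 0.0149 against control, -0.62, adjusted p = 0.00429 against Ube2f shRNA). With Ube2f shRNA the prolyl isomerase gene Ppic rose (0.38, adjusted p = 0.034). In the comparison of Ube2m shRNA against control, the calls of Mbtps2 and Ngly1 passed without any 1 of the 9 arrays. In the comparison of Ube2m against Ube2f shRNA, the calls of Herpud2, Mbtps1, Mbtps2, Mogs, Ngly1, Rnf185, Sumf1 and Txndc11 passed without any 1 of the 9 arrays. For Ube2m shRNA against control, Mogs did not pass without Ube2m replicate 1 (0.0731), Ube2m replicate 2 (0.0741) or control replicate 1 (0.062), with the adjusted p in parentheses. For Ube2m shRNA against control, Mbtps1 did not pass without Ube2m replicate 1 (0.124), Ube2m replicate 2 (0.075), Ube2m replicate 3 (0.0506), control replicate 1 (0.107) or control replicate 2 (0.072). For Ube2m shRNA against control, Rnf185 did not pass without Ube2m replicate 1 (0.114), Ube2m replicate 2 (0.125), Ube2m replicate 3 (0.0602), Ube2f replicate 1 (0.0552), control replicate 1 (0.084), control replicate 2 (0.0611) or control replicate 3 (0.053). For Ube2f shRNA against control, Ddit3 did not pass without Ube2f replicate 1 (0.131), Ube2f replicate 2 (0.0958), control replicate 1 (0.0722) or control replicate 3 (0.0647). For Ube2f shRNA against control, Ppic did not pass without Ube2m replicate 1 (0.0643), Ube2m replicate 2 (0.0674), Ube2f replicate 1 (0.168), Ube2f replicate 2 (0.0952), control replicate 1 (0.0991), control replicate 2 (0.0635) or control replicate 3 (0.0703). For Ube2m against Ube2f shRNA, Ddit3 did not pass without Ube2m replicate 3 (0.0594), Ube2f replicate 1 (0.0787) or Ube2f replicate 2 (0.0701). The other calls for Ube2m shRNA against control, of Asns, Creb3, Ero1b, Faf2, Sec11c, Sil1 and Sumf1, were each lost without 5 to 7 of the 9 arrays left out singly (adjusted p up to 0.175). The other calls for Ube2m against Ube2f shRNA, of Asns, Chac1, Creb3l1, Creb3l2, Ero1a and Man1b1, were each lost without 4 to 7 of the 9 arrays left out singly (adjusted p up to 0.198).

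**Figure D4:**
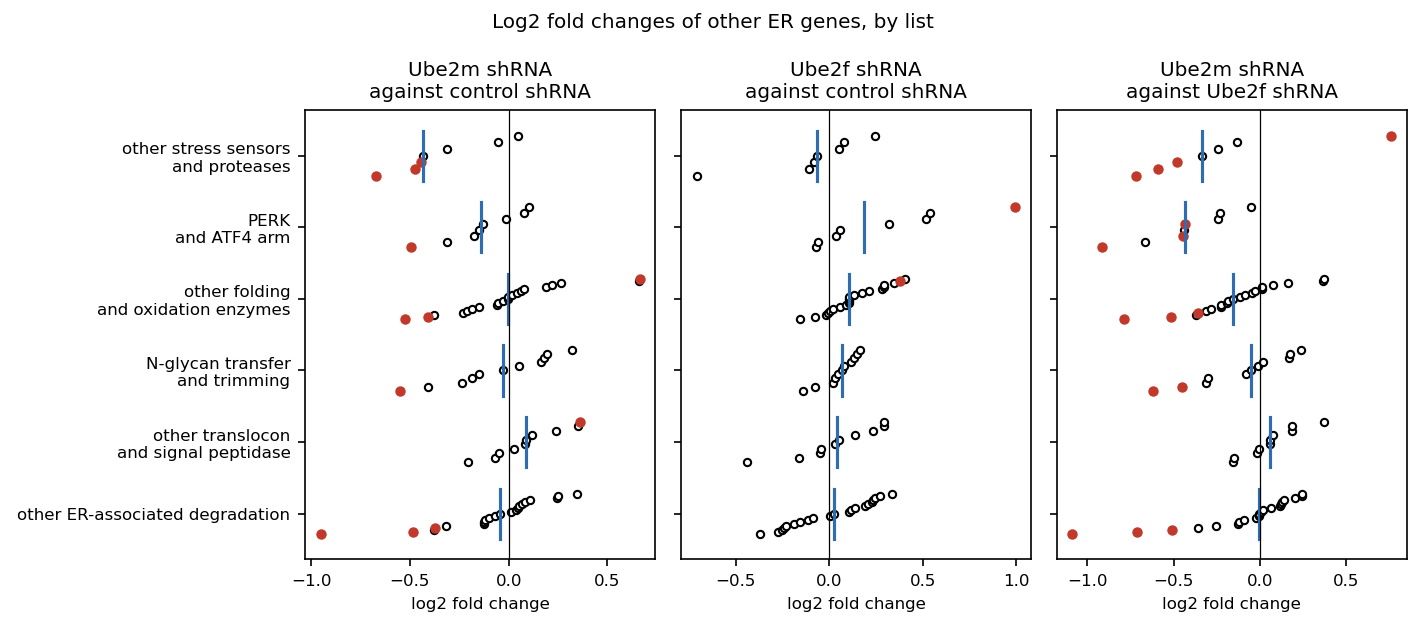
Log2 fold change (x axis) of the 78 further ER genes tested, in 6 lists (rows), for the 3 comparisons. Each point is a gene, filled red where it passed the adjusted threshold, and the blue line is the median of the list. In the right panel all 8 genes of the PERK and ATF4 arm lie below 0.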

How the data were processed

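RNA of 9 samples was measured on 1-colour Affymetrix arrays, 3 samples per group, which the labels call biological replicates. The authors deposited 1 intensity per probe set on a linear scale, for 45101 probe sets, which MAS5 produced per the submitters' processing notes. Its version was not given in the sources used here, and no detection calls were used. The mean signal after leaving out the highest and lowest 2% was 500 on every array, as computed from the deposited values, so that each array was already scaled and no further scaling was applied. Of the probe sets 34945 named 1 gene in the platform annotation, 932 named several and 9160 none, besides 64 controls.

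For each of 18193 genes the probe set with the highest mean log2(signal + 16) was kept. The 10613 genes with a mean no lower than the median over the non-control probe sets (a signal of 53.8) were fitted in limma 3.58.1 (R 4.3.3, lmFit, contrasts.fit, eBayes with trend) with 1 mean per group over all 9 arrays, two-sided, with Benjamini-Hochberg adjustment over these genes and a threshold of 0.05. A fold change on the log2(signal + 16) scale understates changes of low signals. With 3 arrays a side, exact permutation can reach no p under 0.1, so it was not used. In data simulated for Ube2m shRNA against control over 10613 genes, 200 of them changed, 72% of changes of 1 on the log2 scale and 21% of changes of 0.5 were recovered, with 7 false calls. The simulated deviations were independent between arrays, with no replicate 3 effect, and 1031 genes were called in the real comparison. These rates therefore describe the simulation and cannot be carried over to the real arrays.

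The 35 genes, their roles and the wider ER list were chosen with earlier results of these data known. All 35, those of the wider list past the threshold, and Ube2m and Ube2f could be named. Deviations from the group means were correlated over genes between Ube2m and Ube2f shRNA arrays of the same number with r of 0.201, 0.211 and 0.557, so that the blocked value is given where it changed a call between these groups. Replicates 1 and 2 correlated across numbers as well (0.276 and 0.192), and replicate 3 alone stood apart. Against control, replicate 1 showed no such relation (-0.00462 and 0.0148). The 22 alternatives changed the constant, filter, scaling, probe sets, arrays in the fit, block, batch term, RNA quality covariate or arrays left out. Promoter windows and chromosome positions were from RefSeq (GRCm38.p6), searched in Python 3.11.15.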

Additional observations from a re-analysis of the deposited data

How the results depend on the processing

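No called result of the 35 genes reversed under any of the 22 alternatives, all of which use arrays of the main fit. Calr3 for Ube2m shRNA against control, Erlin1 for Ube2f shRNA against control, and Calr3 and Dnajb9 for Ube2m against Ube2f shRNA passed in each of the 22. Of the 35 genes 5 were called with Ube2m shRNA and 8 with Ube2f shRNA, both against control, and 7 between the targeted groups, and the counts below keep that order. Without the filter on low signals they were 3 and 5 in the comparisons with control, beside 4.28% and 2.3% of all genes. With arrays centred on the median they were 2, 1 and 3, beside 4.78%, 2.09% and 8.14%. The mean over all probe sets gave 3 and 5 against control, beside 6.06% and 2.71%. With only the groups compared they were 5 for Ube2f shRNA against control, beside 3.3%. With the beta-actin ratio as covariate they were 2 and 3 against control, beside 4.22% and 2.35%. With replicate 3 as a batch term they were 10 and 14 against control, beside 20% and 13.8%. The replicate block gave 8 for Ube2m shRNA against control, 12 for Ube2f shRNA against control and 9 between the targeted groups, beside 17.6%, 11.5% and 23.5% of all genes. Leaving out 1 array gave 2 to 6, 2 to 10 and 4 to 8, beside 3.66% to 11.1%, 1.84% to 5.49% and 9.58% to 17.1% of all genes. The causes were not tested.

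By role, under the alternatives, not all of them planned before seeing the data, folding factors ranged over 1 to 7 calls with Ube2m and 0 to 7 with Ube2f shRNA against control. With Ube2m shRNA they were 5 under the block and with replicates 1 and 2 alone, 7 under the batch term, and 1 with the actin covariate or arrays centred on the median. With Ube2f shRNA they were 2 without the filter, with the mean over probe sets or with only the groups compared, and 7 with replicates 1 and 2 alone. Degradation factors ranged over 0 to 3 with Ube2m and 1 to 6 with Ube2f shRNA, and 1 to 5 between the groups. Sensors ranged over 0 to 2 with Ube2f shRNA and 0 to 1 between the groups, and translocon factors were at 0 throughout. The 78 further genes gave 12, 2 and 15 calls. Arrays centred on the median gave 4, 1 and 7, no filter 1 for Ube2f shRNA, the mean over probe sets 7 for Ube2m shRNA, only the groups compared 1 and quantile normalization 4 for Ube2f shRNA. The replicate block gave 19 and 7 against control, the batch term 22, 12 and 24, replicates 1 and 2 alone 21 and 7 against control, the actin covariate 2 and 0, and arrays centred on the genes tested 5 and 1. Leaving out 1 array gave 2 to 12, 0 to 5 and 8 to 18. Over all 10613 genes the calls were 1031, 551 and 1672, and ranged over the alternatives from 388 to 2118, from 195 to 1461 and from 864 to 2714. With replicates 1 and 2 alone 16.5% and 10.6% of all genes were called against control, and with quantile normalization 5.43% for Ube2f shRNA. Signals near the limit of 53.8 restrict the precision for Calr3 and Derl3, and 3 arrays per group restrict it for all genes.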

Other observations

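Probe sets of 1 gene did not always give the same differences. Of 5 Sel1l probe sets, all lay below control in both targeted groups, but the log2 difference of Ube2m from Ube2f shRNA was -0.19 and -0.17 on 2 of them and 0.47, 0.61 and 0.53 on the other 3. Sec61a1 had 6 probe sets, whose differences from control ranged from -0.32 to 0.75 with Ube2m shRNA and from -0.22 to 0.59 with Ube2f shRNA, while the one in use gave 0.06 and 0.20. For Hspa5, 2 probe sets gave 0.25 and 0.35 with Ube2m shRNA and 0.32 and 0.42 with Ube2f shRNA, and the third, with the lowest signal, gave -0.23 and 0.013. Edem1 gave -0.17 and -0.24 with Ube2m shRNA, and -0.072 and 0.15 with Ube2f shRNA, on its 2 probe sets. Other probe sets of lower signal gave 0.63 and 0.99 for Pdia6 and 0.23 and 0.38 for Os9, with Ube2m and Ube2f shRNA, against 0.046 and 0.0034, and -0.099 and -0.049, on those in use. These values were not tested, and probe sets were not ranked by level against each other.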
